A study of Sus scrofa with 14 samples.

Results

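Prostaglandins and the lipoxygenase products are signalling lipids made from fatty acids that phospholipases release from membranes. The genes described here are ALOX15, PTGS2, PTGES and HPGD, which code for enzymes of these routes. They were taken as a fixed list, and each was represented by every array probe whose RefSeq accession is a transcript of that pig gene. ALOX15 entered the list because it was higher in osteoarthritis at a bright probe, so its difference between the groups is given as a description and was not tested. Probes were found for 3 of the 4 listed genes, 2 probes for each and 6 in all, out of 2389 genes that could be named on the array. HPGD, which codes for the enzyme that starts prostaglandin breakdown, had no probe carrying a RefSeq accession and was not analysed here.

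The tissue was meniscus, the fibrocartilage pad of the knee, from 14 male Wuzhishan pigs aged 6 to 7 months and weighing 15 to 18 kg. In the osteoarthritis group (OA, 7 animals) it was taken 24 weeks after an operation on the anterior cruciate ligament, and in the sham group (7 animals) 24 weeks after a sham operation. Each animal gave 1 Agilent single-colour array, so an array is called here by its group and number (sham1 to sham7, OA1 to OA7). The comparison asks which of these enzymes' transcripts differ in level between the meniscus of operated and of sham-operated knees.

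As background, phospholipases free arachidonic acid, and the cyclooxygenases PTGS1 and PTGS2 turn it into the unstable prostaglandin H2. PTGS2 is the inducible form and the target of many anti-inflammatory drugs, and PTGES is the inducible microsomal synthase that makes prostaglandin E2 from prostaglandin H2. ALOX15 inserts oxygen into polyunsaturated fatty acids and takes part in making lipoxins and related lipids that limit inflammation, and interleukin-4 and interleukin-13 are its classical inducers in monocytes. In joint tissue prostaglandin E2 is known as a mediator of pain and of matrix turnover, and interleukin-1 raises PTGS2 and PTGES in cartilage and meniscus cells in culture.

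Values are log2 of the scanner's processed signal minus the array's own 75th percentile, called normalised log2 values below, so 0 is the 75th percentile and a difference of 1 is a doubling. Defining genes of fibrocartilage were present on all 14 arrays: the probe of ACAN (aggrecan) lay between the 98.3 and 100.0 percentile of its array, DCN (decorin) at 99.8 or higher and SOX9 between 56.4 and 86.5. The OA arrays were dimmer. Their 75th percentile signal ran from 156.0 to 491.7 against 417.8 to 621.6 in sham, and 67.9% to 89.3% of probes were well above background against 89.7% to 95.2%. Arrays that share a scan start were taken as a slide. The sham arrays filled slides 1 and 2, OA1 was on slide 3, OA2 to OA5 on slide 4 and OA6 and OA7 on slide 5, and sham and OA were scanned on different days, so slide, scan day and group cannot be told apart. Because bulk tissue was measured, fewer cells of a type and less RNA per cell cannot be told apart either.

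All 6 probes were well above background on all 14 arrays and entered the comparison. Across the array, 3.73% of 38823 tested probes passed an adjusted p of 0.05 (limma, Benjamini-Hochberg over all tested probes), 2.88% as higher in OA and 0.847% as lower. All 7 OA values lay above all 7 sham values at 1.58% of the tested probes. Of the 4 probes of PTGS2 and PTGES, 0 passed the threshold, and at an unadjusted p under 0.05 the count was also 0.

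ALOX15 was read by a brighter probe (A_72_P146721, mean signal 1413) and a dimmer one (A_72_P440316, mean signal 109), and only the brighter one separated the groups. At the brighter probe the normalised log2 values of sham1 to sham7 were 1.58, 1.59, 1.71, 1.55, 1.70, 1.49 and 1.41. Those of OA1 to OA7 were 1.93, 2.32, 2.80, 2.10, 2.22, 2.30 and 2.48. The lowest OA array, OA1, stood 0.22 above the highest sham array, sham3, so the groups did not overlap.

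The sham mean at this probe was 1.58 ± 0.11 (SD, n = 7) and the OA mean 2.31 ± 0.28 (SD, n = 7). The difference was 0.73 ± 0.15 (SE) on the log2 scale with a 95% interval of 0.41 to 1.05, a 1.66-fold higher level in OA with an interval of 1.33 to 2.08. This is the value for which ALOX15 was listed, so it and every other form of it given here describe these arrays and are no independent support. The spread within groups was small for this array, since the pooled SD of 0.21 lay at the 2.62 percentile of all tested probes, whose median was 0.45. The SD in OA was 2.62 times that in sham.

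**Figure D1:**
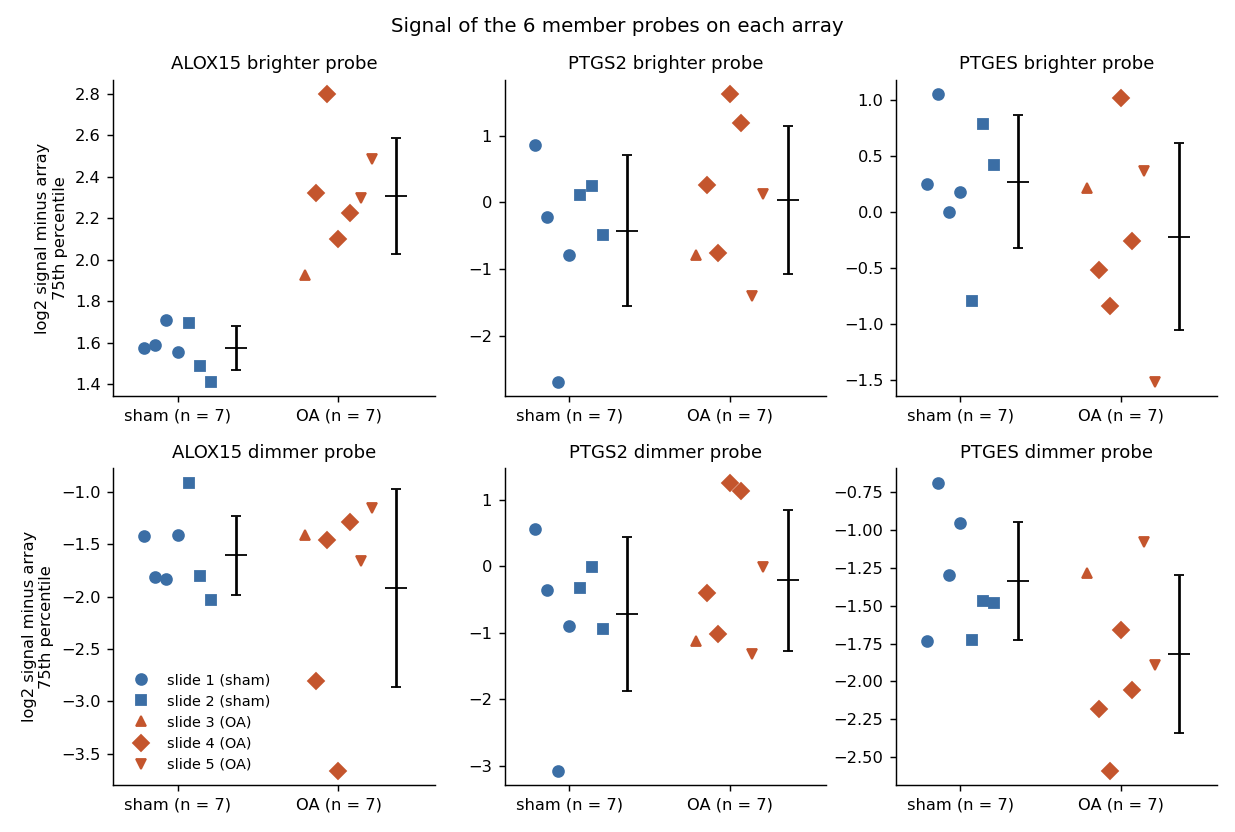
Normalised log2 value (0 is the array's 75th percentile) of the 6 probes of ALOX15, PTGS2 and PTGES on each of the 14 arrays, with sham and OA as separate columns, a point per array shaped by slide, and the group mean with its SD beside the points. At the brighter ALOX15 probe the 7 OA arrays lie between 1.93 and 2.80, above the sham arrays at 1.41 to 1.71, while the groups overlap at the other 5 probes.

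Before the arrays were scaled the groups overlapped at the same probe. Its processed signal ran from 1258 to 1901 in sham with a median of 1744, and from 668 to 2749 in OA with a median of 1169. The dim arrays OA1 to OA5 had signals of at most 1324, and the arrays OA6 and OA7, whose overall brightness of 404.4 and 491.7 was nearest to that of sham, had signals of 1987 and 2749, above every sham array. Ranked within its own array, the probe stood between the 83.9 and 86.1 percentile in sham and between 87.0 and 90.5 in OA. With array brightness as a covariate the log2 difference was 0.80 ± 0.25 (SE), and with slide as a random block it was 0.71 ± 0.20 (SE). It was 0.81 when the dim OA slides 3 and 4 were left out, which leaves OA6 and OA7 against the 7 sham arrays.

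**Figure D2:**
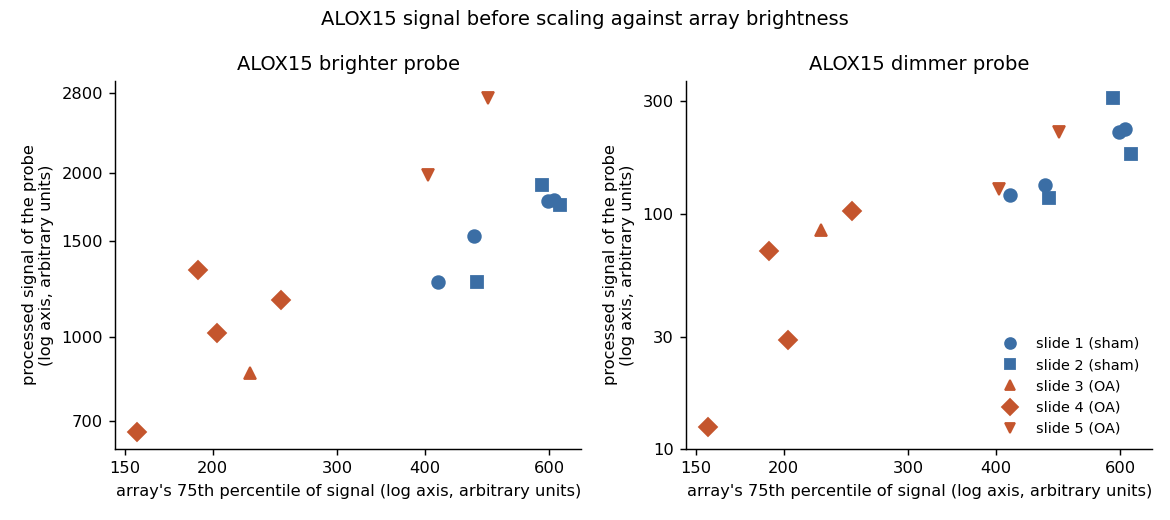
Processed signal of the brighter (left) and dimmer (right) ALOX15 probe before scaling, against the 75th percentile signal of each array, both on log axes, with a point per array coloured by group and shaped by slide. At the brighter probe the dim arrays OA1 to OA5 lie below or within the sham range, and OA6 and OA7 reach 1987 and 2749 against a sham maximum of 1901.

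At the dimmer ALOX15 probe the values of sham1 to sham7 were -1.43, -1.81, -1.83, -1.42, -0.91, -1.80 and -2.03. Those of OA1 to OA7 were -1.41, -2.80, -1.46, -3.66, -1.29, -1.66 and -1.15. Here 5 of 7 OA arrays lay within the range of sham and 2, OA2 and OA4, lay below it. The means were -1.60 ± 0.38 (SD, n = 7) in sham and -1.92 ± 0.94 (SD, n = 7) in OA, and the difference was -0.32 ± 0.35 (SE), with an interval of -1.05 to 0.42. Its sign was not stable: the difference was 0.08 after normexp background correction, 0.20 without slides 3 and 4 and 0.73 with array brightness as a covariate, and it shrank to -0.03 without OA4. The scanner files tie both probes to the same RefSeq transcript, and which of them reports the ALOX15 transcript more faithfully was not tested.

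PTGS2, the inducible cyclooxygenase, differed more between animals than between the groups. At its brighter probe (A_72_P302784, mean signal 321) the values of sham1 to sham7 were 0.86, -0.22, -2.69, -0.79, 0.11, 0.24 and -0.49. Those of OA1 to OA7 were -0.79, 0.26, -0.75, 1.62, 1.19, -1.41 and 0.12. The lowest array was sham3 and the highest were OA4 and OA5, and 5 of 7 OA arrays lay within the sham range.

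The sham mean was -0.42 ± 1.134 (SD, n = 7) and the OA mean 0.03 ± 1.104 (SD, n = 7). The difference of 0.46 ± 0.53 (SE) had an interval of -0.65 to 1.57 and an adjusted p of 0.67 (limma over all tested probes), smaller than the spread within either group. The interval, 0.636 to 2.97 as a fold, leaves room for a lower level in OA or for a clear rise. Without slides 3 and 4 the difference was -0.22, and without sham3 it was 0.08.

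The dimmer PTGS2 probe (A_72_P443218, mean signal 266) gave the same order of arrays at the extremes. Its values ran from -3.07 to 0.56 in sham with a median of -0.36, and from -1.32 to 1.25 in OA with a median of -0.40. The difference was 0.51 ± 0.52 (SE), with an interval of -0.59 to 1.61 and an adjusted p of 0.63 (limma), and it was 0.12 without sham3. Between the highest and the lowest array the level differed 19.9-fold at the brighter probe and 20.0-fold at the dimmer one, and the pooled SDs of 1.12 and 1.11 lay at the 97.5 and 97.4 percentiles of all tested probes.

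PTGES, the inducible prostaglandin E2 synthase, had lower means in OA at both probes, and neither passed the test. At the brighter probe (A_72_P177991, mean signal 374) the values of sham1 to sham7 were 0.25, 1.05, -0.00, 0.17, -0.80, 0.79 and 0.41. Those of OA1 to OA7 were 0.21, -0.52, -0.84, 1.01, -0.26, 0.36 and -1.52. In OA 5 of 7 arrays were below the sham mean and 2, OA3 and OA7, were below every sham array.

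The means of 0.27 ± 0.60 (SD, n = 7) in sham and -0.22 ± 0.84 (SD, n = 7) in OA differed by -0.49 ± 0.35 (SE), with an interval of -1.24 to 0.26 and an adjusted p of 0.47 (limma). With array brightness as a covariate the difference was -1.24, and without slides 3 and 4 it was -0.85. Without 1 array at a time it ran from -0.70 to -0.27.

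At the dimmer PTGES probe (A_72_P495640, mean signal 123) the values of sham1 to sham7 were -1.73, -0.69, -1.30, -0.96, -1.72, -1.47 and -1.48. Those of OA1 to OA7 were -1.29, -2.18, -2.59, -1.66, -2.05, -1.08 and -1.89. Here 4 of 7 OA arrays, OA2, OA3, OA5 and OA7, fell below every sham array, and OA1 and OA6 were above the sham mean. The difference was -0.48 ± 0.24 (SE), with an interval of -0.996 to 0.03 and an adjusted p of 0.28 (limma). Both PTGES probes kept a negative sign in all 27 alternatives, and the adjusted p ranged from 0.27 to 0.83 at the brighter probe and from 0.14 to 0.91 at the dimmer one.

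**Figure D3:**
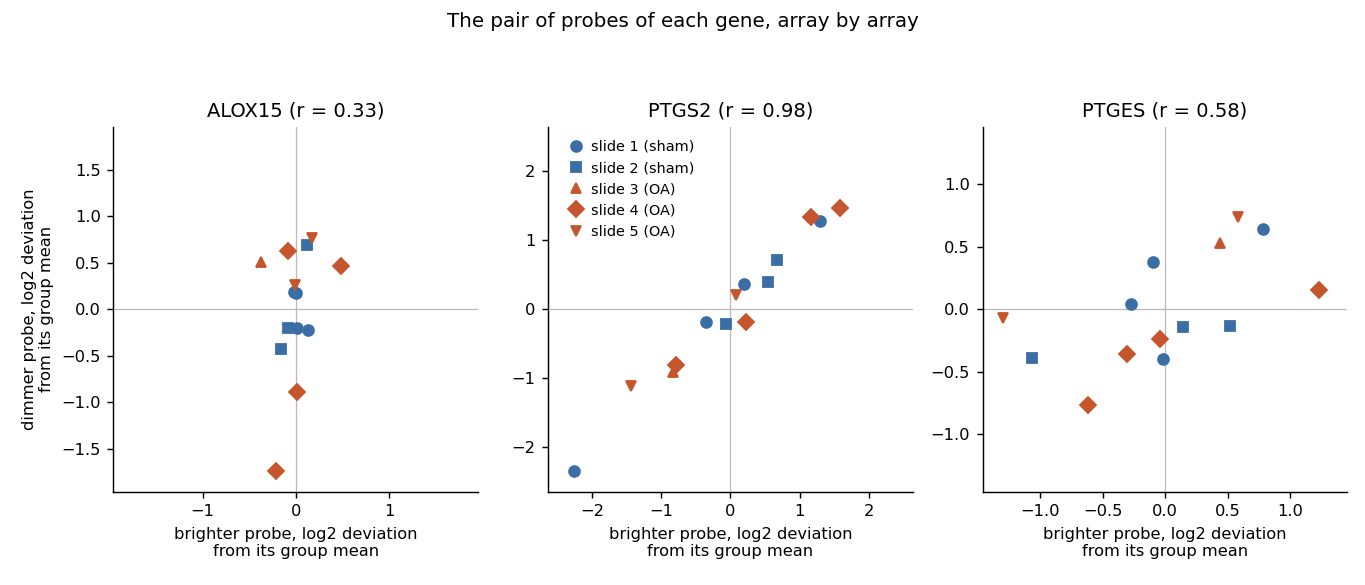
Deviation of the normalised log2 value from its group mean at the dimmer probe against the brighter probe of ALOX15, PTGS2 and PTGES, with a point per array coloured by group and shaped by slide. The PTGS2 points follow a line (r = 0.98), the PTGES points do so loosely (r = 0.58) and the ALOX15 points scatter (r = 0.33).

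Whether the probes of a gene tracked each other from animal to animal was measured on deviations from the group means over the 14 arrays, as 3 of 6 relations computed among the probes. The PTGS2 probes rose and fell together, with Pearson's r = 0.98 (permutation p = 1e-05, the smallest that 100000 permutations can give, adjusted p = 6e-05 over the 6 relations) and Spearman's rho = 0.96 (permutation p = 1e-05). Leaving out sham3 and OA6 gave r = 0.98, so the wide PTGS2 range was read alike by both probes. The PTGES probes gave r = 0.58 (permutation p = 0.047, adjusted p = 0.095) and rho = 0.60 (permutation p = 0.039, adjusted p = 0.079), and r = 0.73 without OA4 and OA7. The ALOX15 probes gave r = 0.33 (permutation p = 0.4, adjusted p = 0.48) and rho = 0.29 (permutation p = 0.36), and r = 0.60 without OA1 and OA3.

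The other 3 relations set the brighter probes of the genes against each other. Arrays with a higher ALOX15 value for their group had a lower PTGES value, a relation that passed 0.05 after adjustment by rho and not by r: r = -0.64 (permutation p = 0.03, adjusted p = 0.091 over the 6 relations) and rho = -0.69 (permutation p = 0.015, adjusted p = 0.045). The correlation was -0.58 within the 7 sham arrays, -0.69 within the 7 OA arrays, -0.77 without OA1 and OA3 and -0.70 for deviations from slide means over the 13 arrays that share a slide. It was -0.39 when arrays were scaled to their median in place of the 75th percentile. A slide holds at most 4 arrays, too few for a correlation within it. ALOX15 and PTGS2 gave r = -0.26 (permutation p = 0.4) and rho = -0.25 (permutation p = 0.42), and PTGS2 and PTGES gave r = 0.16 (permutation p = 0.6) and rho = 0.17 (permutation p = 0.58). Values on an array share its scaling, so relations between probes also carry any error in that scaling.

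The genes whose values most resembled those of the brighter ALOX15 probe within the groups, among 2256 other named genes at their brightest tested probe, were FAM209B (r = 0.85), FHL1 (r = 0.85), OVGP1 (r = 0.83), TOMM34 (r = 0.81) and ADIPOR2 (r = 0.79), over 14 arrays. FHL1 codes for a LIM-domain protein abundant in muscle, OVGP1 for an oviduct glycoprotein and ADIPOR2 for an adiponectin receptor. Their OA minus sham differences ran from -0.02 ± 0.22 (SE) at FAM209B to 0.35 ± 0.17 (SE) at FHL1. By the same measure, chosen after the ALOX15 list, TRDMT1 (r = 0.83) and GOPC (r = 0.83) were nearest to PTGS2, followed by SNRPB2, MYOZ2 and the acute-phase gene SAA3 (r = 0.82 each). Nearest to PTGES were ADSS (r = 0.92), PAFAH1B1 (r = 0.86) and the cytokine gene IL18 (r = 0.85). These correlations describe the 14 arrays and carry no test.

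The other genes of the eicosanoid route passed the test at about the share of all named genes. Of 87 genes in 6 lists, 32 had a tested probe, 1 was higher in OA and 0 were lower at their brightest probe. That is 3.12%, beside 3.23% of all 2258 named genes. At that share, a count of 0 in a list as short as those below says little about its genes. At an unadjusted p under 0.05 the count was 7, or 21.9%, beside 15.3% of all named genes. Their median difference was -0.10 on the log2 scale against 0.00 over the named genes, and 14 of 32 (43.8%) were positive, beside 50.5% of all named genes.

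Upstream of the members, 7 genes that release or supply the fatty acid substrate were tested, and 0 passed. The smallest p belonged to PNPLA2, a triglyceride lipase, at -0.83 ± 0.33 (SE), and to FADS2, a fatty acid desaturase, at -0.23 ± 0.25 (SE). Both probes are dim and were well above background on only 2 and 3 of the 7 OA arrays, and both differences were positive after normexp background correction, at 0.68 and 0.75.

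Among 6 other prostanoid synthases 0 passed. PTGES3, a cytosolic prostaglandin E synthase that also acts as a co-chaperone, ran from 1.30 to 3.27 in sham and from 2.19 to 3.70 in OA, a difference of 0.34 ± 0.30 (SE). PTGDS, the prostaglandin D2 synthase, differed by -0.24 ± 0.28 (SE). AKR1B1, an aldo-keto reductase that can make prostaglandin F2α, differed by -0.62 ± 0.29 (SE) at its brighter probe and -1.05 ± 0.39 (SE) at its dimmer one, with adjusted p values of 0.25 and 0.14 (limma). AKR1C1, a related reductase, was at -0.52 ± 0.39 (SE), and its 6 probes had both signs. PTGS1, PTGES2 and PTGIS were not analysed here.

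Of the 3 genes of prostaglandin inactivation and transport that were tested, CBR2, a carbonyl reductase, rose at its brighter probe. Its values were -3.37 to -2.47 in sham and -2.33 to -1.59 in OA, without overlap. The difference was 0.95 ± 0.19 (SE), 1.93-fold, with an adjusted p of 0.012 (limma), and all 7 OA arrays were above the sham mean. Its dimmer probe differed by -0.58 ± 0.22 (SE) with 1 of 7 OA arrays above the sham mean, and the mean of both probes by 0.19. With slide as a random block the adjusted p was 0.12, and without slides 3 and 4 the difference was 0.57 with an adjusted p of 0.44 (limma).

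The remaining pair was named after its values were seen. SLCO2A1, the prostaglandin transporter that carries prostaglandins into cells for breakdown, differed by 0.69 ± 0.20 (SE) with an adjusted p of 0.065 (limma), with all 7 OA arrays above the sham mean, and its dimmer probe by -0.13 ± 0.22 (SE). It passed the threshold under quantile normalization, with an adjusted p of 0.047. PTGR1, a reductase that inactivates prostaglandins and leukotriene B4, differed by 0.29 ± 0.17 (SE) and 0.35 ± 0.39 (SE) at its 2 probes.

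Of 4 tested receptors for prostanoids 0 passed at their brightest probe. PTGER3, a prostaglandin E2 receptor, differed by 0.08 ± 0.18 (SE) and 0.12 ± 0.18 (SE) at its 2 probes. PTGFR, the prostaglandin F2α receptor, was at -0.33 ± 0.48 (SE), and PPARG, a nuclear receptor that binds prostaglandin and lipoxygenase products, at 0.25 ± 0.32 (SE), with positive differences at all 3 of its probes. PPARD, a related nuclear receptor named after its values were seen, was at -0.11 ± 0.22 (SE) at its brighter probe, while its dimmer probe was at 0.78 ± 0.20 (SE) with an adjusted p of 0.040 (limma) and 7 of 7 OA arrays above the sham mean. PTGER1, PTGER2 and PTGER4 were not analysed here.

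Of the 8 other genes listed with the lipoxygenase and leukotriene branch 0 passed. They include the epoxide hydrolases EPHX1 and EPHX2 and the cytochrome P450 gene CYP4A24, which act outside that branch. ALOX5AP, the membrane protein that presents arachidonic acid to 5-lipoxygenase, ran from 0.81 to 2.10 in sham and from 1.71 to 3.02 in OA at its brightest probe. All 7 OA arrays were above the sham mean there, and the difference was 0.61 ± 0.24 (SE) with an adjusted p of 0.18 (limma). Its other 2 probes differed by -0.31 ± 0.25 (SE) and -0.23 ± 0.28 (SE). GGT1, which takes part in leukotriene conversion, was at 0.44 ± 0.21 (SE). ALOX5, ALOX12 and LTA4H were not analysed here. Among 4 genes listed as receptors for leukotrienes and resolving mediators, which include ANXA1, a ligand and not a receptor, 0 passed. CMKLR1, a chemerin and resolvin receptor, was at -0.51 ± 0.23 (SE) and CYSLTR1, a cysteinyl leukotriene receptor, at -0.38 ± 0.29 (SE).

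**Figure D4:**
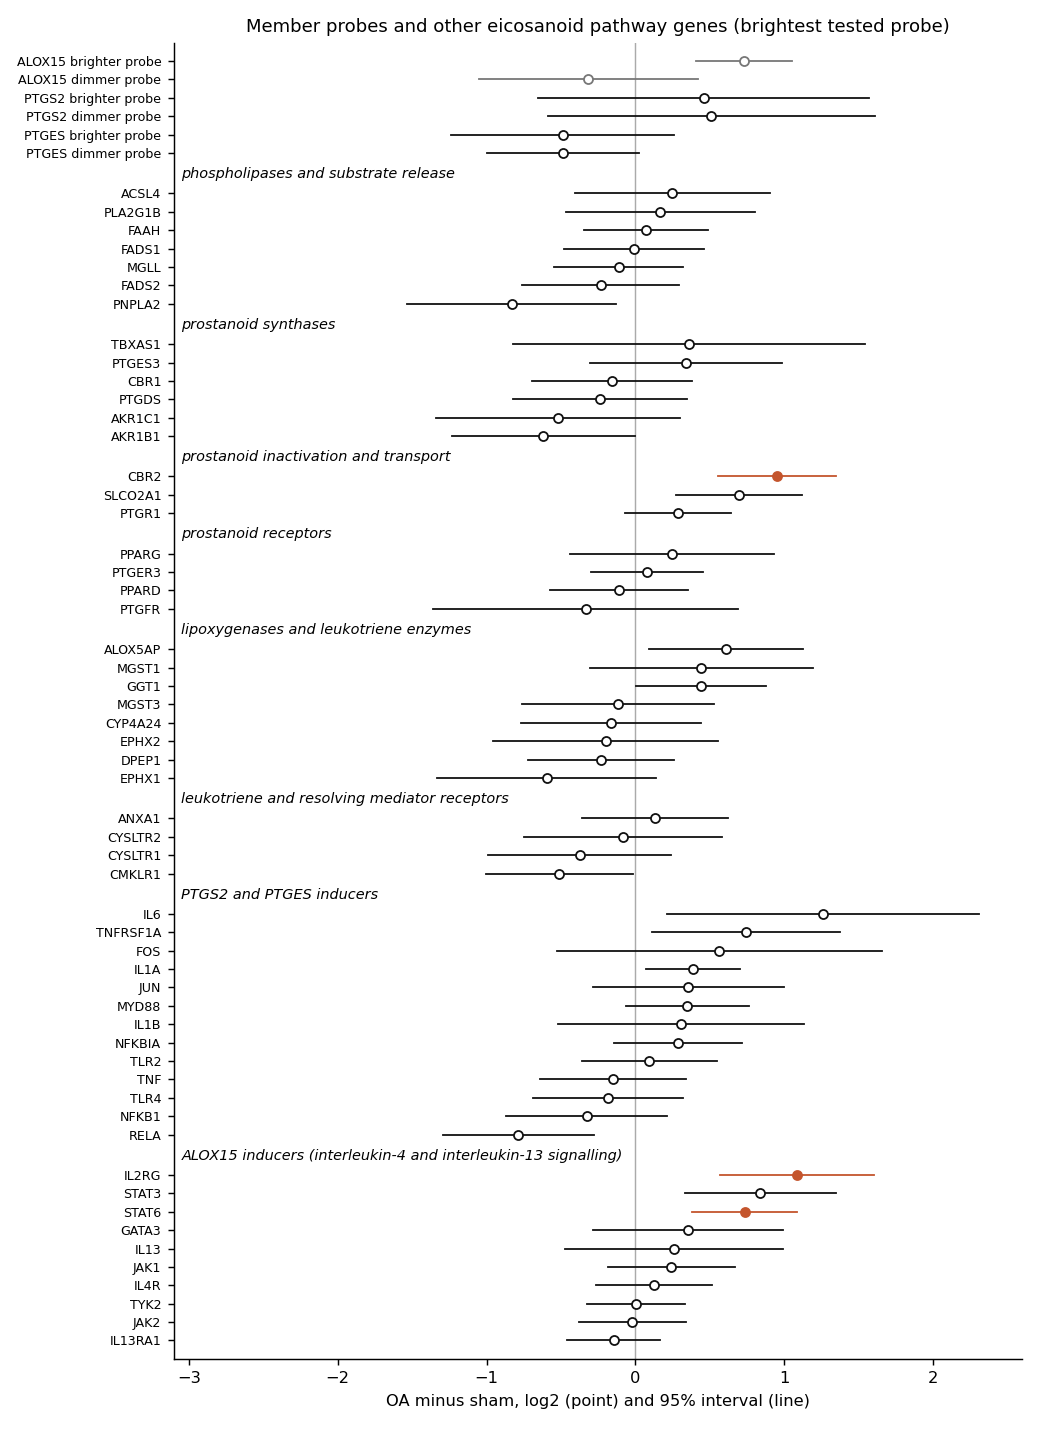
OA minus sham on the log2 scale with its 95% interval for the 6 member probes and the tested genes of the eicosanoid and inducer lists at their brightest tested probe, grouped by list, filled where the adjusted p was under 0.05. CBR2 (0.95), STAT6 (0.73) and IL2RG (1.09) are the listed genes past the adjusted threshold, and the ALOX15 points carry no test.

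Genes of the signals known to induce the member enzymes formed another 2 lists, called inducers here. The lists also hold NFKBIA, an inhibitor of NF-kappaB. It was at 0.29 ± 0.20 (SE) at its brighter probe and -0.30 ± 0.23 (SE) at its dimmer one. Of 28 genes, 23 were tested, 2 were higher in OA and 0 lower, which is 8.70% beside 3.23% of all named genes. In all 17 of 23 differences (73.9%) were positive, beside 50.5% of all named genes, with a median of 0.29. At an unadjusted p under 0.05 the count was 7, or 30.4%, beside 15.3% of all named genes. With a random block for slide or for scan day, with the brightness covariate, without slides 3 and 4, or with the mean over each gene's probes, 0 inducer genes and 0 eicosanoid genes were called.

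Both inducer genes that rose are on the list of interleukin-4 and interleukin-13 signalling, of which 10 genes were tested. STAT6, the transcription factor that this signal activates, ran from -2.96 to -1.99 in sham and from -1.91 to -1.59 in OA, without overlap, at its brighter probe. The difference was 0.73 ± 0.17 (SE) with an adjusted p of 0.023 (limma), and 0.68 without slides 3 and 4, with an adjusted p of 0.34 (limma). With slide as a random block the adjusted p was 0.16 (limma). The other STAT6 probe differed by -0.38 ± 0.20 (SE), and the mean of both probes by 0.17. IL2RG, the common gamma chain shared by several cytokine receptors, differed by 1.09 ± 0.25 (SE) with an adjusted p of 0.023 (limma) at a dim probe of mean signal 15.3, and by -0.90 ± 0.34 (SE) at another. The mean of both IL2RG probes differed by 0.09, and with slide as a random block the adjusted p at the brighter one was 0.16 (limma). IL4R, a subunit of the interleukin-4 and interleukin-13 receptors, was at 0.12 ± 0.18 (SE). In this list 8 differences were positive and 2 negative, IL13RA1 at -0.15 ± 0.15 (SE) and JAK2 at -0.02 ± 0.17 (SE). The positive ones that did not pass ran from 0.00 at TYK2 to 0.84 at STAT3, which had an adjusted p of 0.063 (limma). The other STAT3 probes ran from -0.61 to 0.35.

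Of 13 tested genes of the signals that induce PTGS2 and PTGES 0 passed at their brightest probe, beside 3.23% of all named genes. TNF, an inflammatory cytokine named after its values were seen, was at -0.15 ± 0.23 (SE) at its brighter probe, while its dimmer probe was at 0.66 ± 0.15 (SE) with an adjusted p of 0.025 (limma) and 7 of 7 OA arrays above the sham mean. IL1B, the classical inducer of both enzymes, ran from -3.71 to -1.74 in sham and from -3.82 to -1.49 in OA, a difference of 0.31 ± 0.39 (SE), and -0.21 without slides 3 and 4. IL1A was at 0.39 ± 0.15 (SE) with an adjusted p of 0.16 (limma). RELA, a subunit of NF-kappaB, was at -0.79 ± 0.24 (SE) with an adjusted p of 0.080 (limma) and at -0.75 ± 0.27 (SE) at its second probe, and it was at 0.04 after normexp background correction. IL6, named after its values were seen, was at 1.26 ± 0.50 (SE) with 6 of 7 OA arrays above the sham mean and an adjusted p of 0.17 (limma), and its other 2 probes were at 1.04 ± 0.45 (SE) and 0.78 ± 0.29 (SE). Without OA1 the adjusted p of IL6 was 0.035.

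The members were also set against the PTGS2 and PTGES inducer list, ALOX5AP and the macrophage markers CD163 and AIF1. Genes of the interleukin-4 and interleukin-13 list were not included. Across animals within the groups, PTGS2 correlated most with IL6 (r = 0.71), IL1B (r = 0.61) and IL1A (r = 0.58) among these genes, and least with NFKB1 (r = -0.46). Spearman's rho was 0.68 with IL6, 0.57 with IL1B and 0.44 with IL1A, and sham3 was the lowest sham array at both PTGS2 and IL1A. PTGES gave r = 0.07 with IL1B and r = -0.02 with IL6. For ALOX15 these were -0.44 and 0.16, and the values ran from -0.66 with MYD88 to 0.51 with ALOX5AP and 0.53 with NFKBIA. These values over 14 arrays are descriptions without a test.

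Markers of cell types were set beside the results. Of 5 tested macrophage markers 0 passed in either direction, with 3 positive and 2 negative differences, and 4 were well above background on all arrays. Their summed level, relative to the array's 75th percentile, ran from 11.3 to 63.9 in sham and from 27.9 to 57.2 in OA. CD163 was at 0.36 ± 0.40 (SE) and AIF1 at 0.27 ± 0.38 (SE). CD14 was at -0.45 ± 0.24 (SE) and at -1.12 ± 0.35 (SE) at its dimmer probe, with 0 of 7 OA arrays above the sham mean at either. Of 3 tested eosinophil and mast cell markers 0 passed, with 3 positive and 0 negative differences at their brightest probe. CCR3, a dim probe of mean signal 14.8, was at 0.40 ± 0.19 (SE), KIT at 0.48 ± 0.41 (SE) and MS4A2 at 0.38 ± 0.47 (SE). The dimmest KIT probe was at -0.17 ± 0.37 (SE). The sums of this list ran from 0.546 to 3.47 in sham and from 2.13 to 5.82 in OA. Of 5 tested neutrophil markers 0 passed, with 3 positive and 2 negative differences and sums of 0.488 to 1.12 in sham and 0.583 to 2.19 in OA. S100A12 was at 1.27 ± 0.37 (SE) with an adjusted p of 0.065 (limma) and 7 of 7 OA arrays above the sham mean. S100A9 was at 0.76 ± 0.29 (SE) with an adjusted p of 0.15 (limma), and S100A8 at 0.24 ± 0.42 (SE). CXCL8 was at -0.02 ± 0.69 (SE) and LTF at -0.23 ± 0.27 (SE). Of 10 tested adipocyte markers 2 rose, LEP and FASN, 0 fell and 8 did not pass, and the sum ran from 27.0 to 47.0 in sham and from 44.8 to 142.6 in OA. The brightest FASN probe alone gave 12.1 to 31.5 in sham and 30.6 to 76.2 in OA, and the sum of the other 9 genes overlapped, at 9.95 to 24.3 and 10.9 to 66.4. The other LEP probe differed by -0.34, and the other FASN probes by -0.08 and -0.56. Of 13 skeletal muscle markers 2 rose (MYOD1 and TNNI1), with sums of 13.6 to 42.3 in sham and 12.7 to 25.4 in OA, and of 2 red cell markers KLF1 rose. The probes of MYOD1, TNNI1 and KLF1 were dim, with mean signals of 14.7, 32.8 and 41.3, beside a median of 202.7 over the named genes. Of 5 endothelial, 5 smooth muscle and pericyte and 5 synovial lining markers tested, 0 passed. The count was also 0 of 8 T and NK cell, 2 B and plasma cell and 4 fibrochondrocyte markers. Of all 2258 named genes, 3.23% passed in either direction and 2.97% were higher in OA. The part of these cell types in the ALOX15, CBR2, STAT6 and IL2RG differences was not tested.

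**Figure D5:**
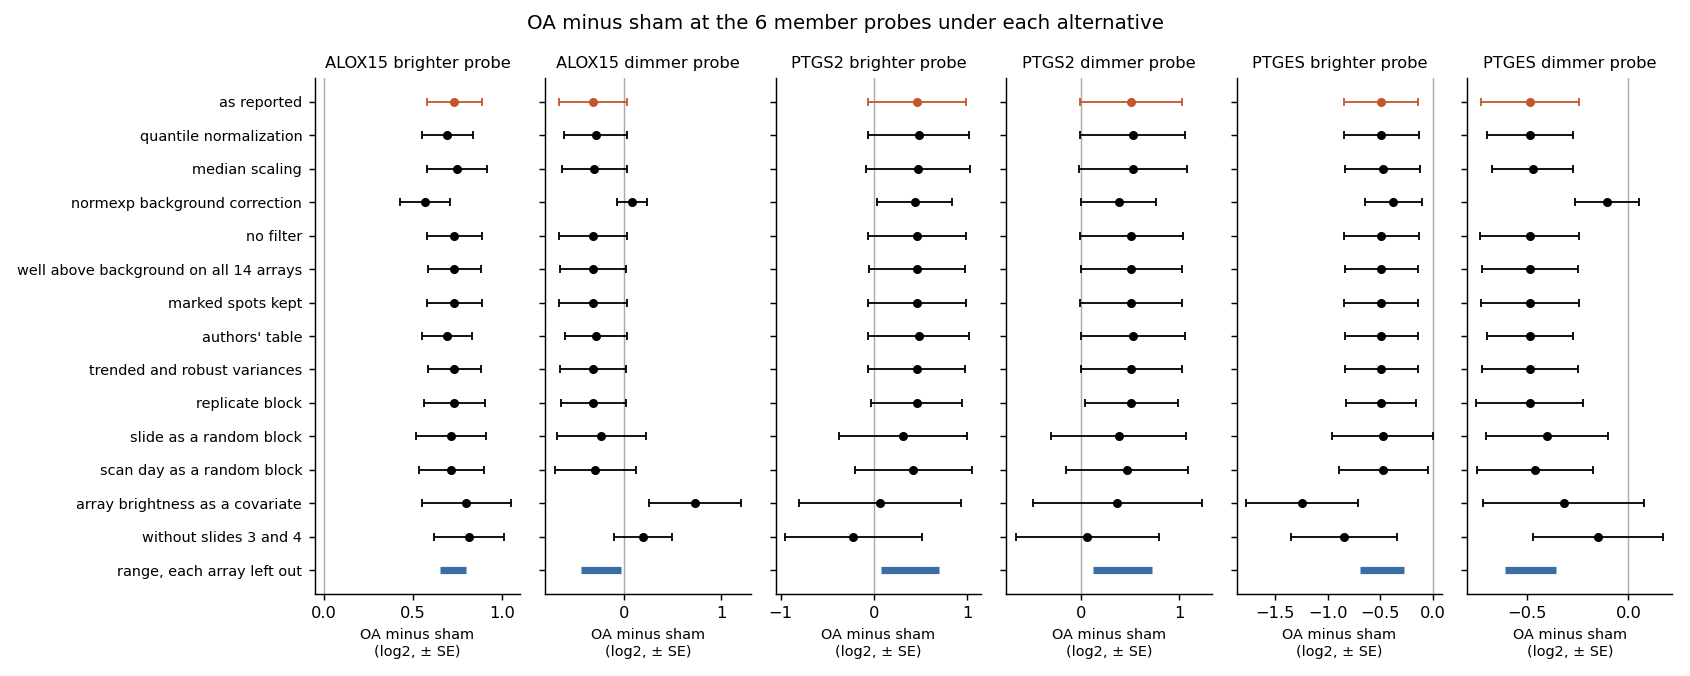
OA minus sham on the log2 scale at the 6 probes as reported and under each alternative processing, with a panel per probe, points with their SE and, in the lowest row, the range over arrays left out in turn. The brighter ALOX15 probe stays between 0.57 and 0.81, the dimmer one changes sign, PTGS2 reaches -0.22 without slides 3 and 4, and PTGES stays negative.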

How the data were processed

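RNA from 14 menisci was measured on 14 single-colour arrays, 7 sham and 7 OA, with groups and numbers from the sample titles. Per the file headers, the deposited intensity values of the spots come from Agilent Feature Extraction (version 11.0.1.1) and have the background subtracted, and per the labels' protocols total RNA was amplified and labelled with Cy3. Processed signals were taken as log2, less the 75th percentile of the non-control probes on that array, after 82 marked spots were set missing and the spots of 50 probes averaged. A probe was tested if the scanner marked it well above background on 7 or more of the 14 arrays, which 38823 of 43603 were. Two-sided tests were made with limma 3.58.1 in R 4.3.3, and p-values were adjusted by Benjamini-Hochberg over every tested probe, with 0.05 as the threshold. The procedure was tested on simulated data.

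Genes were named through the RefSeq accession in the files and the RefSeq gene table of Sscrofa11.1 (5461 of 5779 such probes matched). No sequence or position is given, since the reference used here holds none for the build of the array. The authors' deposited series table of log2 values followed the scanner signal of each array (Spearman rho 0.994 or higher over probes) with medians near 6.00, as quantile-normalized values would; its scale and centring are not stated, and it served as an alternative.

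The members and lists were chosen with earlier results of these data known. Named were all member probes, list members past the threshold or else the 2 with the smallest p, a fixed set of enzymes, receptors and inducers, and the 5 genes most like ALOX15; SLCO2A1, PTGR1, IL6, PPARD and TNF were added after their values were seen. A gene in a list is read by its brightest tested probe. Alternatives were quantile and median scaling, normexp (offset 50, on median signals, as the files hold no mean signal), other filters, blocks, a brightness covariate and arrays left out. The number of arrays limits the precision. Per the series' design text the 14 animals were separate. The tests treated their arrays as independent, so p-values rest on the spread between arrays within a group. That spread holds animal, slide and array brightness together, and the estimated correlation within a slide was 0.22.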

Additional observations from a re-analysis of the deposited data

Results flagged for a closer look

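In 58 groups of 7 arrays checked, 4 held an array far from the others, where chance alone flags about 1 group in 20. All 4 were lowest values among sham arrays. At the dimmer PTGS2 probe sham3 was at -3.07, with the other sham arrays between -0.94 and 0.56, and it was the lowest array at the brighter PTGS2 probe too. IL1A, an inducer of PTGS2, was at -4.09 on the same array, with the others between -3.80 and -3.59. For ALOX5AP sham2 was at 0.81, with the others between 1.65 and 2.10. For PTGES3 sham4 was at 1.30, with the others between 2.54 and 3.27.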

How the results depend on the processing

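The difference at the brighter ALOX15 probe, for which the gene was listed, ran from 0.57 to 0.81 over 27 alternatives and from 0.65 to 0.80 without 1 array at a time; these reuse the same arrays and are no support for it. The dimmer ALOX15 probe was at 0.73 with the brightness covariate and from -0.44 to -0.03 with arrays left out. PTGS2 and PTGES passed in no alternative. The brighter PTGS2 probe reversed to -0.22 without slides 3 and 4.

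Of all tested probes 1449 passed. The count was 2243 under quantile normalization, 2256 in the authors' table, 2551 with no filter, 18421 after normexp, 149 with scan day and 18 with slide as a random block, 4 with the brightness covariate, 195 without slides 3 and 4, and 730 to 2711 with an array left out (lowest without sham1, highest without OA1). Higher and lower calls were 1120 and 329, 1385 and 784 under median scaling, 1569 and 674 under quantile normalization, 1509 and 747 in the authors' table, 17643 and 778 after normexp, and 1122 and 69 with probes above background on all 14 arrays. Normexp moved the median of all probes to 0.34 from -0.05.

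Eicosanoid genes called higher numbered 2 under quantile and median scaling and in the authors' table, 9 after normexp, 0 with the blocks, the covariate, the gene means or without slides 3 and 4, and 1 to 2 with an array left out (2 without sham3). Inducers called higher numbered 10 after normexp, 1 with the filter on all arrays, 0 in the same settings as the eicosanoid genes, and 0 to 3 with an array left out (0 without sham1, 1 without OA3). Inducers called lower numbered 1 (RELA) under quantile and median scaling and in the authors' table, and 0 to 1 with an array left out (1 without OA6). Without OA3 or sham1 the adjusted p of STAT6 was 0.052 or 0.053, and without sham1 that of IL2RG was 0.051 (limma).

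The replicate numbers did not pair the arrays: 2 of 7 same-number correlations were over 0.1 (range -0.19 to 0.27) and 0 arrays correlated best with their own number. With the number as a replicate block 335 probes passed, and 0 eicosanoid and 0 inducer genes were called higher.

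Reversed after normexp were AKR1C1 (0.54), CMKLR1 (0.26), CYSLTR1 (0.46), FADS2 (0.75), PNPLA2 (0.68), PTGFR (0.35) and RELA (0.041). With the covariate AKR1C1 (0.66), CYSLTR1 (0.64), GGT1 (-0.12) and PTGFR (0.43) reversed, without slides 3 and 4 AKR1C1 (0.40), CYSLTR1 (0.33), GGT1 (-0.18), IL1B (-0.21) and PTGFR (0.12), and with gene means AKR1C1 (0.016). The relation of ALOX15 to PTGS2 was 0.11 under median scaling, and that of PTGS2 to PTGES was -0.15 without slides 3 and 4 and from -0.096 (without OA4) to 0.30 with an array left out; the alternatives for relations were chosen after seeing the data. The cause was not tested for any of these. Probes near background on the dim OA arrays limit what can be read from them.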
